A study of Mus musculus with 2 samples.

Results

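The microRNA genes that lie inside the 4 Hox clusters of the mouse are Mir10a, Mir10b, Mir615, Mir196b, Mir196a-2 and Mir196a-1. They were chosen by gene identifier and position, not by a rule on their values, though with earlier results of these data known. They are 6 of the 1973 gene rows in the count tables. No other row fell inside the clusters, although the annotation lists 7 microRNA genes there. The seventh, Gm44463 in HoxD, has no row of its own and was not analysed here.

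The values come from sequencing of RNA shorter than 30 nt from hindbrain of B6NCrl embryos at embryonic day 13.5, healthy and with males and females pooled. Both libraries form 1 group, replicate 2 and replicate 1, with no treatment, genotype or other tissue to set against them. Their labels give 1 donor identifier, 2 biosample identifiers and the term biological replicate. Whether different litters were used is not stated, and part of the difference between the libraries could be technical. Each level is printed as CPM, the reads of a gene per 1000000 reads counted on microRNA genes of that library.

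Hox genes stand in each cluster in the order of their use along the body, low-numbered genes towards the head and high-numbered genes towards the tail. In the developing hindbrain, Hox genes of the low-numbered groups help set the identity of the rhombomeres that express them. The clusters also hold microRNA genes, transcribed on the same strand as their Hox neighbours, whose products repress messages, among them Hox messages. In mouse embryos miR-196 directs cleavage of the Hoxb8 message, and in zebrafish miR-10 represses HoxB1a and HoxB3a.

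The mature sequences show that the 6 genes fall into a mir-10 pair, a mir-196 trio and mir-615. The following lines give the arms these groups are named for, plus both arms of mir-615, from RefSeq on GRCm38.p6, 5′ to 3′, with the seed, bases 2 to 8, in capitals.
miR-10a-5p: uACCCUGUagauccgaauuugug
miR-10b-5p: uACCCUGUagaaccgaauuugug
miR-196a-5p: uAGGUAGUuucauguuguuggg
miR-196b-5p: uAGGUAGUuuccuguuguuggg
miR-615-5p: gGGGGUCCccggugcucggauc
miR-615-3p: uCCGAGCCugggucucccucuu

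All 6 genes had mature sequences in the RefSeq table. The arms miR-10a-5p and miR-10b-5p are equal in 22 of 23 bases and differ by U12A, with positions counted from 1 at the 5′ end and the base of miR-10a given first. The pair miR-196a-5p and miR-196b-5p is equal in 21 of 22 bases and differs by A12C, with the base of miR-196a first. Both differences lie outside the seed, so the members of each pair have 1 seed in common. Among all mature mouse sequences in the table, the seed ACCCUGU was held by 2 microRNAs and the seed AGGUAGU by 2, in each case only the pair named here. The mir-615 arms had seeds that no other mature sequence in the table shares.

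The sequences also decide which genes could be counted. Mir196a-1 and Mir196a-2 both make miR-196a-5p, and their hairpins share 3 stretches of 20 nt. A read of that arm matches both genes, and reads with more than 1 place in the genome were set aside in the deposited tables and are in no gene row. Their counts can come only from reads that one of them does not share, such as those of the 3p arms printed here, so their values are uncertain and low values do not measure miR-196a-5p.
miR-196a-1-3p: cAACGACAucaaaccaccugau
miR-196a-2-3p: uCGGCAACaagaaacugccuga
Mir10a, Mir10b, Mir615 and Mir196b shared no stretch of 20 nt with any other annotated hairpin, and none of their mature sequences occurred in another hairpin of the RefSeq table. That table held hairpins for 5 of the 6 members, so this second search was incomplete.

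By position the genes fall into those beside Hox genes of groups 4 and 5 and those beside groups 9 and 10. Mir10a (ENSMUSG00000065519.1, chr11:96317165-96317274, plus strand, GRCm38) lies in HoxB, 1.496 kb from the coding part of Hoxb4 and 12.0 kb from that of Hoxb5, in no Hox transcript of the annotation. Mir10b (ENSMUSG00000065500.2, chr2:74726070-74726137, plus strand) lies in HoxD, 1.14 kb from the coding part of Hoxd4 and 19.3 kb from that of Hoxd8, in an intron of 2 Hoxd4 transcripts and of 1 Hoxd3 transcript. Mir615 (ENSMUSG00000076010.1, chr15:103014910-103015001, plus strand) lies in HoxC in an intron of Hoxc5, 3.87 kb from the coding part of Hoxc6 and 19.7 kb from that of Hoxc4.

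The mir-196 genes lie further towards the 5′ end of their clusters. Mir196b (ENSMUSG00000065443.1, chr6:52230081-52230165, minus strand) lies in HoxA, 2.34 kb from the coding part of Hoxa10 and 3.98 kb from that of Hoxa9. It falls in an exon of 2 Hoxa9 transcripts, neither of them coding, and in an intron of 1. Mir196a-2 (ENSMUSG00000065488.1, chr15:102973350-102973434, plus strand) lies between Hoxc10, at 2.28 kb, and Hoxc9, at 8.22 kb, within an intron of 1 long Hoxc5 transcript. Mir196a-1 (ENSMUSG00000065546.1, chr11:96265164-96265265, plus strand) lies 6.28 kb from the coding part of Hoxb9 and 68.9 kb from that of Hoxb13, in no Hox transcript.

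**Figure D1:**
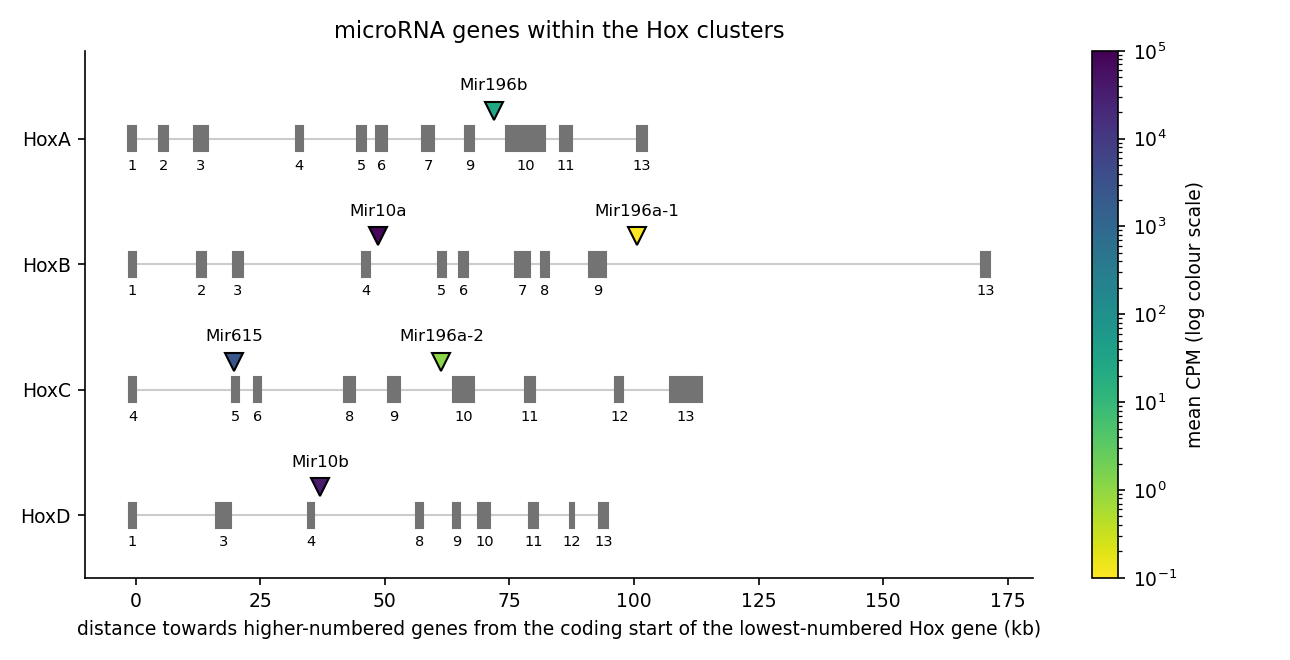
Map of the 4 Hox clusters, with the distance in kb from the coding start of the lowest-numbered Hox gene on the horizontal axis. Grey boxes are the coding spans of Hox genes with their group numbers, and triangles are microRNA genes coloured by mean CPM on a log scale. Mir10a, Mir10b and Mir615, beside groups 4 and 5, have the darker colours, and the mir-196 genes, beside groups 9 and 10, the lighter ones, with miR-196a-5p outside the counts of the Mir196a copies.

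Replicate 2 held 4508244 reads counted on microRNA genes and replicate 1 held 3006571. Multimapping reads were 34.5% and 33.9% of all reads in replicates 2 and 1, so every level is a level among uniquely placed reads. Among brain markers, Mir137 stood at 6281 and 6132 CPM and Mir9-3 at 619 and 527 CPM. No library had above 5.10 CPM for Mir9-2 or for any of the 3 genes of Mir124a. Mir9 and Mir124a each have several gene copies. Reads that match several copies are in no gene row, so these low values do not measure miR-9 or miR-124. Of the 9 neural markers with a row, 5 were detected. Detected means at least 10 counts in both libraries, which 356 genes reached.

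Among uniquely placed reads, the hindbrain was rich in the mir-10 pair, held little Mir196b, and gave no measure of miR-196a-5p. Of the 6 genes 4 were detected, and together the 6 held 13.6% and 11.1% of all microRNA gene counts in replicates 2 and 1, a mean of 12.4% ± 1.71 (SD, n = 2). Nearly all of that was Mir10a and Mir10b, with 68.3% and 29.6% of the members' counts in replicate 2 and 67.6% and 30.5% in replicate 1. In bulk tissue, many cells with little of a microRNA and few cells with much of it cannot be told apart.

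Mir10a, whose product carries the mir-10 seed from the HoxB cluster, stood at 92739 CPM in replicate 2, from 418088 reads, and at 75367 CPM in replicate 1, from 226596 reads. Its mean of 84053 ± 12284 CPM (SD, n = 2) was rank 2 of all 1973 rows. Mir10b, its partner in HoxD, stood at 40138 CPM in replicate 2, from 180951 reads, and at 34041 CPM in replicate 1, from 102346 reads, with a mean of 37089 ± 4311 CPM (SD, n = 2) and rank 6. The libraries do not overlap between these genes, since the lower Mir10a value lies above the higher Mir10b value.

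Mir615, in the Hoxc5 intron, stood at 2787 CPM in replicate 2, from 12564 reads, and at 2053 CPM in replicate 1, from 6171 reads, with a mean of 2420 ± 519 CPM (SD, n = 2) and rank 66. Mir196b, which carries the mir-196 seed from HoxA, had 34.4 CPM in replicate 2, from 155 reads with an exact Poisson 95% interval of 29.2 to 40.2 CPM. In replicate 1 it had 17.6 CPM, from 53 reads with an interval of 13.2 to 23.1 CPM. The mean was 26.0 ± 11.8 CPM (SD, n = 2) at rank 272, the detected member that varied most for its level.

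Mir196a-2 had 7 reads in replicate 2, or 1.55 CPM with an interval of 0.624 to 3.20, and 2 reads in replicate 1, or 0.665 CPM with an interval of 0.0806 to 2.40. Mir196a-1 had 1 read in replicate 2 and 0 in replicate 1. By a 1-sided limit a count of 0 allows up to 3 reads, or 0.998 CPM, while its 2-sided interval reaches 1.23 CPM. The intervals of these 2 genes overlap in both libraries, so their order is not determined at this depth. These intervals and limits cover counting error only, as the sources used here name no molecular identifiers.

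**Figure D2:**
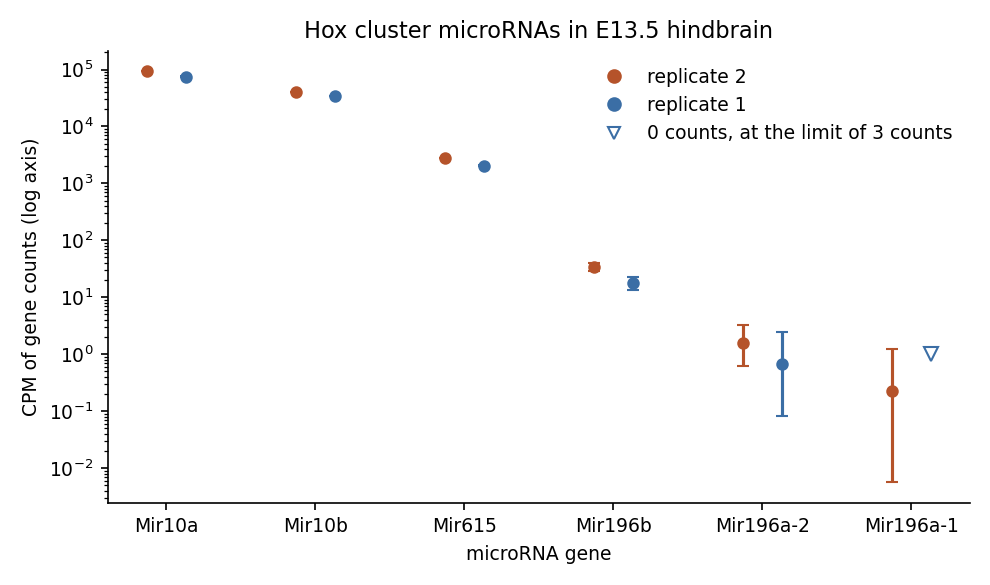
Level of each Hox cluster microRNA in the 2 hindbrain libraries, in CPM of gene counts on a log axis. Points are single libraries, bars are exact Poisson 95% intervals of the count, and the open triangle marks 0 counts at the limit of 3 counts. Mir10a at 92739 and 75367 CPM stands highest and the mir-196 genes lowest, from 34.4 CPM for Mir196b in replicate 2 downwards, with miR-196a-5p outside the counts of the Mir196a copies.

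The order Mir10a, Mir10b, Mir615, Mir196b was the same in both libraries, with no overlap between neighbours. Ratios taken within a library need no scaling between libraries and put sizes on the steps. Mir10a had 2.31 reads for each Mir10b read in replicate 2 (counting interval 2.30 to 2.32) and 2.21 in replicate 1 (2.20 to 2.23). Mir10b had 14.4 reads for each Mir615 read in replicate 2 (14.1 to 14.7) and 16.6 in replicate 1 (16.2 to 17.0). The step from Mir615, the lowest gene beside groups 4 and 5, to Mir196b, the one gene beside groups 9 and 10 whose 5p arm is counted, was 81.1 in replicate 2 (69.2 to 95.6) and 116 in replicate 1 (88.9 to 156). Summed over genes, the mir-10 pair had 3675 reads for each mir-196 read in replicate 2 (3152 to 4312) and 5981 in replicate 1 (4595 to 7939), with miR-196a-5p largely outside this count. Of these ratios, that of Mir10a to Mir10b differed least between the libraries, and those with mir-196 genes differed most.

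Set among all detected genes, the mir-10 genes stood at the very top of the profile of uniquely placed reads. MicroRNAs with several gene copies lose reads from that profile, so its ranks are not an order of amounts in the tissue. Mir99a, at 161545 and 188722 CPM in replicates 2 and 1, was the single gene above Mir10a, and Mir100, at 51229 and 54801 CPM, was the next below it. Neither overlaps Mir10a between libraries. Mir10b lay between Mirlet7g of the let-7 family, at 45581 and 37386 CPM, and Mir17, at 37055 and 35120 CPM, and overlaps both. Mir615 overlaps its rank neighbours Mir301 (2431 and 2709 CPM) and Mir298 (2204 and 2598 CPM). Mir196b, likewise, overlaps Mir3078 (28.4 and 24.0 CPM) and Mir3067 (24.6 and 26.6 CPM).

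**Figure D3:**
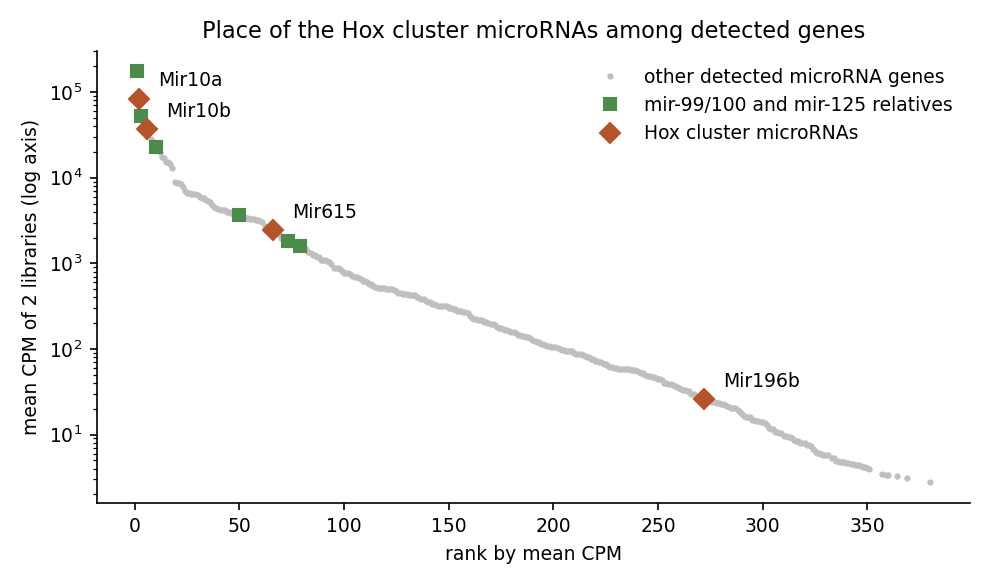
Mean CPM over both libraries on a log axis against rank, for the 356 detected microRNA genes. Diamonds are the 4 detected Hox cluster microRNAs, squares are the mir-99/100 and mir-125 relatives and dots are all other detected genes. Mir10a and Mir10b sit at ranks 2 and 6, Mir615 at 66 and Mir196b at 272.

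The genes around Mir10a in that order are its relatives by sequence. The mir-10, mir-99/100 and mir-125 genes are commonly grouped as 1 family. The lines here show the 5p arms of the mir-99/100 genes beside which mir-10 stands in level, with seeds in capitals. Levels are per gene and do not separate the arms of a hairpin.
miR-100-5p: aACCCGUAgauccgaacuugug
miR-99a-5p: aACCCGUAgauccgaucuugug
miR-99b-5p: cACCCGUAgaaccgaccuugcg
With a shift of 1 base, miR-10a-5p equals miR-100-5p in 19 of 22 bases and miR-99a-5p in 18 of 22, and miR-10b-5p equals miR-100-5p in 18 of 22 and miR-99b-5p in 16 of 22. The longest run that miR-10a-5p has in common with miR-100-5p is 11 bases. The mir-99/100 seed, ACCCGUA, differs from that of mir-10. The lowest mir-99/100 match, miR-10a-5p with miR-99b-5p, is 15 of 22 bases with a longest run of 5. The likeness to miR-125b-5p is only slightly lower, with either mir-10 arm equal in 14 of 21 bases at a shift of 2. That to miR-125a-5p is lower, at 10 of 23 with no shift. No common run with either mir-125 arm exceeds 5 bases, but several mir-99/100 pairs have no longer run.

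Counted together, Mir10a, Mir10b, Mir99a, Mir99b, Mir100, Mir125a, Mir125b-1 and Mir125b-2 held 37.4% and 38.5% of gene counts in replicates 2 and 1. Mir125b-1 and Mir125b-2 both make miR-125b-5p, whose reads match both genes and are set aside like those of miR-196a-5p, so their values and the shares that include them leave that arm out. Within this sum the mir-10 pair held 13.3% and 10.9% of all counts, and the other 6 genes held 24.1% and 27.6%. The mir-10 pair therefore took a larger share in replicate 2, and its relatives a smaller one. Mir99a had 1.74 reads for each Mir10a read in replicate 2 (counting interval 1.73 to 1.75) and 2.50 in replicate 1 (2.49 to 2.52). Mir10a in turn had 1.81 reads for each Mir100 read in replicate 2 (1.80 to 1.82) and 1.38 in replicate 1 (1.37 to 1.38).

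**Figure D4:**
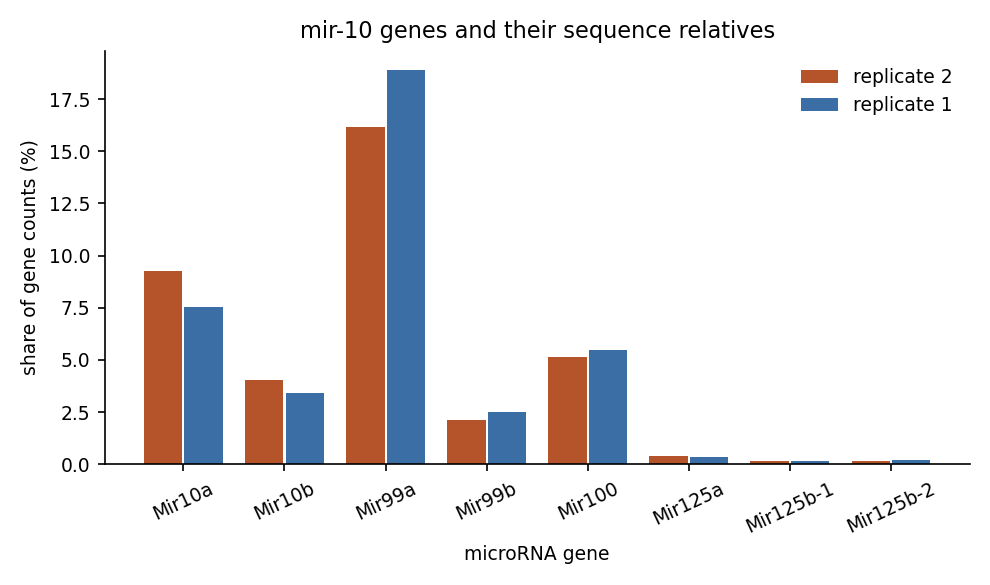
Share of all microRNA gene counts, in percent, held by Mir10a, Mir10b and their sequence relatives, with 1 bar per library and replicate 2 on the left of each pair. Mir10a and Mir10b have the taller bar in replicate 2, and Mir99a, Mir99b and Mir100 in replicate 1.

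All detected Hox cluster microRNAs were higher in replicate 2 in value, 4 of 4, where 48.3% of detected genes were higher. The log2 ratio of replicate 2 over replicate 1, with trimmed-mean (TMM) library sizes, was 0.26 for Mir10a (counting interval 0.26 to 0.27), 0.20 for Mir10b (0.19 to 0.21) and 0.41 for Mir615 (0.36 to 0.45). It was 0.93 for Mir196b (0.47 to 1.41). Their median was 0.34, against -0.01 over all detected genes and -0.05 over the 20 most abundant. One library stands on each side, so these ratios compare libraries and carry no test of a condition.

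Past a 1.5-fold difference lay 1 of the 4, Mir196b, which has the fewest reads, against 9.55% of detected genes in either direction and 3.65% of them higher in replicate 2. With 1 member beyond it, the count says nothing of the members as a set. Mir10a lay above 86.0% of detected genes in this ratio, Mir10b above 80.6%, Mir615 above 92.7% and Mir196b above 98.9%. The relatives went the other way or stayed near 0, at -0.26 for Mir99a, -0.29 for Mir99b, -0.13 for Mir100, -0.15 for Mir125b-1, -0.10 for Mir125b-2 and 0.02 for Mir125a.

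Markers of other cell types also differed between the libraries. The choroid plexus and multiciliated list, 6 of 6 detected, summed to 9685 CPM in replicate 2, against 4989 CPM in replicate 1. The mesenchyme list, 3 of 4 detected, summed to 538 and 820 CPM, the muscle list, 3 of 7 detected, to 86.3 and 149 CPM, the blood list, 3 of 3, to 231 and 314 CPM, and the epithelial list, 7 of 7, to 688 and 801 CPM. Members of a list did not always move together. In the muscle list Mir208b, a microRNA of a myosin heavy chain gene, had 17.8 and 100 CPM in replicates 2 and 1 and Mir208a had 3.33 and 15.6, while Mir206, of skeletal muscle, had 64.1 and 32.6. In the blood list Mir451a, of red blood cells, had 57.5 and 152 CPM, while Mir144 had 20.9 and 20.3 and Mir223 had 152 and 141. In the muscle list Mir1a-1, Mir133a-1 and Mir133a-2 were at 0 in both libraries. These genes are copies whose shared reads are in no gene row, so the 0 does not measure miR-1a or miR-133a. The same limit holds for Mir199a-1 and Mir199a-2 in the mesenchyme list. The neural list summed to 9508 and 9630 CPM. The part of these differences in the higher Hox cluster values of replicate 2 was not tested.

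**Figure D5:**
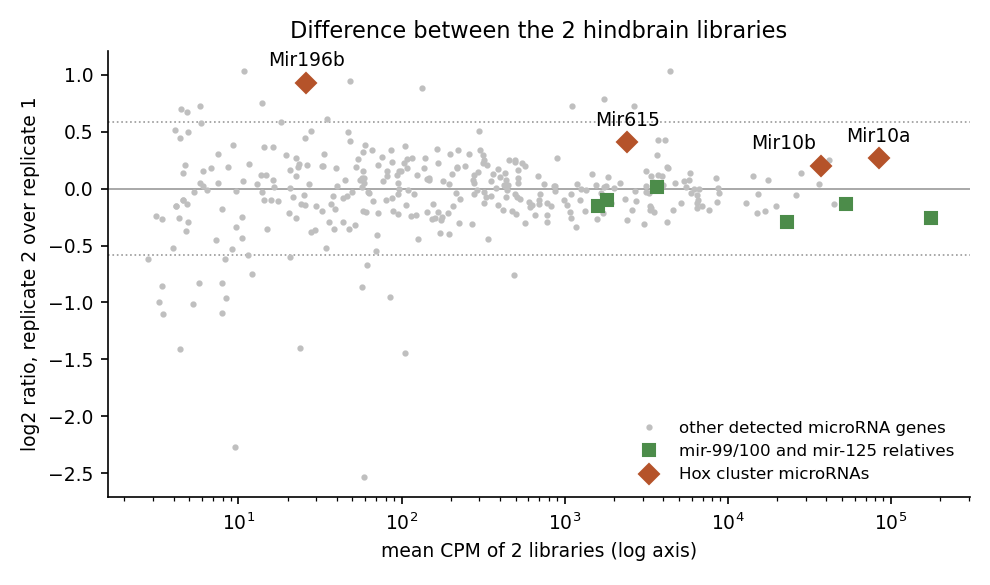
Log2 ratio of replicate 2 over replicate 1 with TMM library sizes, against mean CPM on a log axis, for the 356 detected genes. Diamonds are Hox cluster microRNAs, squares the mir-99/100 and mir-125 relatives, and dotted lines mark a 1.5-fold difference. The 4 diamonds lie above 0, from 0.20 for Mir10b to 0.93 for Mir196b, and 5 of the 6 squares lie below 0.

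Nearly all reads of the members lay on the annotated strand. On the opposite strand of the members lay 5 reads in replicate 2, of which 3 at Mir10a and 2 at Mir10b, and 0 in replicate 1, against 611766 and 335168 reads on the annotated strand. Over all gene rows, 1.90% and 1.88% of reads lay on the opposite strand. The 0 in replicate 1 allows up to 3 reads by the same 1-sided limit.

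Hox messages can be searched for the sites these microRNAs would pair with, although the tables hold no message levels. The first 500 bases of the 3′ UTR were read on the message strand for 14283 coding genes with a UTR that long, 34 of them Hox genes. The match to the mir-196 seed, ACTACCT, was present in 8 of the 34 Hox genes, or 23.5%, and in 1.98% of all the genes. Among them were Hoxa7, Hoxa9, Hoxb7 and Hoxc8. The match to the mir-10 seed, ACAGGGT, was present in 1 of 34, Hoxa3, or 2.94%, and in 4.77% of all the genes. The match to the seed of miR-615-3p, GGCTCGG, was in none of the 34 and in 1.01% of all the genes. Beyond the first 500 bases, a miR-615-3p match lay at base 529 of the 1310-base 3′ UTR of Hoxb4. Matches to mir-10 there included Hoxd1 at base 556 of 753 and Hoxb3 at base 903 of 1531, and those to mir-196 Hoxb1 at base 1080 of 1117 and Hoxc8 at base 892 of 966. A match describes these letters in this window and shows neither binding nor repression.

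Laid without gaps along whole 3′ UTRs, miR-196a-5p found its most complete partner among the 39 Hox genes in Hoxb8. The site is shown because it pairs along its whole length, with Watson-Crick partners in capitals and the G of a G:U pair in lower case.
Hoxb8 site: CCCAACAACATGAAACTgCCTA
It starts at base 418 of the 845-base 3′ UTR of ENSMUST00000052650.3, on chromosome 11, from GENCODE M21 transcripts. All 22 bases of miR-196a-5p pair there, 21 as Watson-Crick pairs and 1 as a G:U pair. Of 20900 genes scanned, 2 had a site with 22 pairs, Hoxb8 and Rps6ka2, a ribosomal S6 kinase gene. With miR-196b-5p the Hoxb8 site keeps 21 of 22 pairs, which 15 genes reach. The G:U pair falls within the seed, so the site is not among the exact seed matches counted before. For miR-10a-5p the best ungapped pairing among Hox genes had 18 of 23 pairs, which 4 of the 39 Hox genes and 2231 of 20882 genes reached. In Hoxb13, 1 of those 4, 11 were Watson-Crick pairs and 7 were G:U pairs.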

How the data were processed

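Each library came with 1 table of raw read counts per microRNA gene, deposited with no normalization, from an alignment to mm10 and the GENCODE M4 annotation, per the README deposited with the tables. No aligner, counter or trimming step is named in the sources used here. Of the 2 single-strand columns, the one taken as the annotated strand was set by rule, and it held the larger total. Unmapped, multimapping, unassigned and ambiguous reads stand in 4 summary rows, kept out of library sizes. The gene rows held 47.5% of 9486700 reads in replicate 2 and 49.0% of 6141045 in replicate 1.

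CPM were computed on gene-row totals. Names and positions came from GENCODE M21 on GRCm38, the assembly mm10 denotes, which matched 1894 of 1973 identifiers. TMM sizes came from edgeR 4.0.16 and alternative size factors from DESeq2 1.42.0. With 1 group no test between conditions could be run, and no p was computed. Poisson and Clopper-Pearson 95% intervals cover counting error. The ratio script was tested on simulated counts with counting error only. Changed genes were recovered with known totals, and TMM sizes were tested only on a draw without changed genes. Detection asked for 10 counts in both libraries.

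The members and lists were chosen with earlier results of these data known. Named genes were the members, any other row inside the clusters, the genes directly above and below each detected member, the mir-10 relatives and marker lists. The 3′ UTR search, over the longest 3′ UTR of each gene, and Gm44463 were added after the data were seen. The planned search of the genome for the mature sequences was not run, and annotated hairpins were searched in its place. Alternatives were other scalings, the either-strand column, all reads as denominator, other detection minimums and each library alone.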

Additional observations from a re-analysis of the deposited data

How the results depend on the processing

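Of 53 values recomputed with another scaling, column, denominator or count minimum, 44 stayed within the spread between libraries, the counting interval or 1.5 times the main count, and 9 moved. Of the 13 that are log2 ratios, the one kind of value that can change sign, 0 did. The 16 values of single libraries define the spread and lie within it by construction, so they say nothing of stability. TMM sizes and the either-strand column could hardly move a level and add little. The TMM factors were 1.012 and 0.9882 in replicates 2 and 1, and the members had few opposite-strand reads. With all reads as the denominator in place of gene-row reads, the levels came to 40485 for Mir10a, 17870 for Mir10b, 1165 for Mir615, 12.5 for Mir196b and 59533 for the sum of the 6, since that denominator also holds multimapping and unmapped reads. Mir196a-2 (1.109 to 0.532) and Mir196a-1 (0.111 to 0.0527) fell too, but count as unmoved because their spread between libraries is wide. With totals in place of TMM, the log2 ratio was 0.30 for Mir10a and 0.24 for Mir10b, while the median of all detected genes was 0.02. Without a filter on low counts, which adds Mir196a-2, the members' median ratio was 0.41. With a minimum of 50 counts, 5.52% of detected genes lay beyond 1.5-fold.

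Each library alone gave 75367 to 92739 CPM for Mir10a, 34041 to 40138 for Mir10b, 2053 to 2787 for Mir615, 17.6 to 34.4 for Mir196b and 111478 to 135699 for the sum. The ratio of Mir10a to Mir10b was 2.21 to 2.31. Mir196b rests on 155 and 53 reads in replicates 2 and 1, and the Mir196a copies on 7 or fewer, so depth and multimapping limit what can be said of mir-196. No paired analysis was possible because the design has 1 group.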
